A study of Homo sapiens with 6 samples.

Results

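The D-type cyclins, the kinases they activate, a group of their inhibitors and RB form the switch that lets a cell leave G1. The 10 genes described here were chosen by symbol: the D-type cyclins CCND1, CCND2 and CCND3, the kinases CDK4 and CDK6, the INK4 inhibitors CDKN2C and CDKN2D, the CIP/KIP inhibitors CDKN1B and CDKN1C, and RB1. All 10 were found among the 27980 gene symbols of the count tables, and all 10 were among the 15473 genes with enough counts to be tested. CCND2 passed the count filter through the control libraries alone.

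RNA was sequenced from 6 libraries of RKO, a poorly differentiated human colon carcinoma line. The cells of 3 libraries stably carried a lentivirus whose hairpin targets TRIP6 (shTRIP6), and those of the other 3 a lentivirus with a scrambled hairpin (shControl). TRIP6 is a LIM-domain adaptor of the zyxin family that resides at focal adhesions and can enter the nucleus. Both groups had thus been infected. Puromycin selection (5 µg/ml) began 36 h later and lasted 2 to 3 weeks. The labels name the control genotype WT although it carried the scrambled hairpin. The sources used here give neither the number of hairpins nor whether each group is a clone or a pool, and an effect of the hairpin and a difference between cell stocks cannot be told apart in this design. The labels call the replicates biological without naming separate cultures, and p-values measure the spread between these libraries, which may be technical. In bulk RNA, fewer cells of a kind and less RNA per cell cannot be told apart.

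Mitogens raise the D-type cyclins, which bind CDK4 or CDK6 and start the phosphorylation of RB. RB that is not phosphorylated holds E2F transcription factors, and its phosphorylation frees them to drive the genes of S phase. INK4 proteins bind CDK4 and CDK6 directly and keep the cyclin away, while CIP/KIP proteins bind the assembled cyclin-kinase complexes and block CDK2 most strongly. In many carcinomas the INK4 genes CDKN2A and CDKN2B, which neighbour each other on the short arm of chromosome 9, are deleted or silenced.

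Libraries held 29605764 to 32089298 counts, and levels are given in CPM (counts scaled to library size, with TMM factors). TRIP6 itself stood at 19.8, 19.4 and 19.5 CPM in shTRIP6 and at 73.9, 86.4 and 80.5 CPM in shControl, a log2 fold change of -2.04 ± 0.07 (adjusted p = 1.25e-14 in edgeR). The simple-epithelium keratins KRT8 and KRT18 had means of 1719 and 885 CPM in shTRIP6 and 1804 and 871 CPM in shControl, while KRT19 of the same list rose from 13.8 to 50.6 CPM (log2 fold change 1.87, adjusted p = 7.84e-12). CDH1, the epithelial cadherin, had 1, 0 and 1 counts in shTRIP6 and 9, 9 and 7 in shControl. EPCAM was at 0 in all 6 libraries, and the 8 colon markers together reached at most 0.384 CPM in any library. The 7 leukocyte markers summed to 233.9 to 243 CPM in shTRIP6 and 187 to 235 CPM in shControl, nearly all of it CD68, with PTPRC at 0 in shTRIP6 and at a mean of 0.0974 CPM in shControl. The 7 fibroblast markers summed to 16.9 to 18.5 CPM in shTRIP6 and 15.3 to 18.3 CPM in shControl, and the 5 endothelial markers to 0.257 to 0.288 and 1.78 to 2.31 CPM. The fibroblast sum hides members that moved apart: of 6 tested, 1 rose and 3 fell, against 29.0% and 31.2% of all tested genes. PDGFRB rose from 6.88 to 13.9 CPM (log2 fold change 1.02), while COL1A1 fell from 5.15 to 2.38 CPM (-1.12) and COL3A1 from 2.35 to 0.275 CPM (-3.07). DCN, the matrix proteoglycan decorin, had 0 counts in all shTRIP6 libraries and 33, 31 and 31 in shControl. The endothelial PECAM1 likewise had 0 counts against 51, 51 and 49. Both genes passed the count filter through shControl alone and could be called in 1 direction only. DCN is 1 of the 3 fibroblast falls counted above. Their part in the results below was not tested.

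Of the 10 genes, 6 were higher in shTRIP6 (CCND1, CCND3, CDK4, CDKN2C, CDKN2D and RB1), 3 were lower (CCND2, CDK6 and CDKN1C), and CDKN1B did not pass the threshold, an adjusted p under 0.05 in edgeR's quasi-likelihood test over all genes tested. Over all tested genes 29.0% were called higher and 31.2% lower, 60.1% in either direction, so a call by itself is common in this comparison. The groups did not overlap in 9 of the 10 genes, against 65.3% of all tested genes. Of those 9, 6 lay wholly higher and 3 wholly lower in shTRIP6, against 31.8% and 33.5% of all tested genes. The median log2 fold change of the 10 genes was 0.31, beside -0.004 over all tested genes. CCND2, with no count in shTRIP6, could be called in 1 direction alone. Without it 6 of 9 genes were higher and 2 lower, the groups of 8 did not overlap, and the median was 0.32. Fold changes are shTRIP6 over shControl, on the log2 scale ± SE with n = 3 libraries a group.

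**Figure D1:**
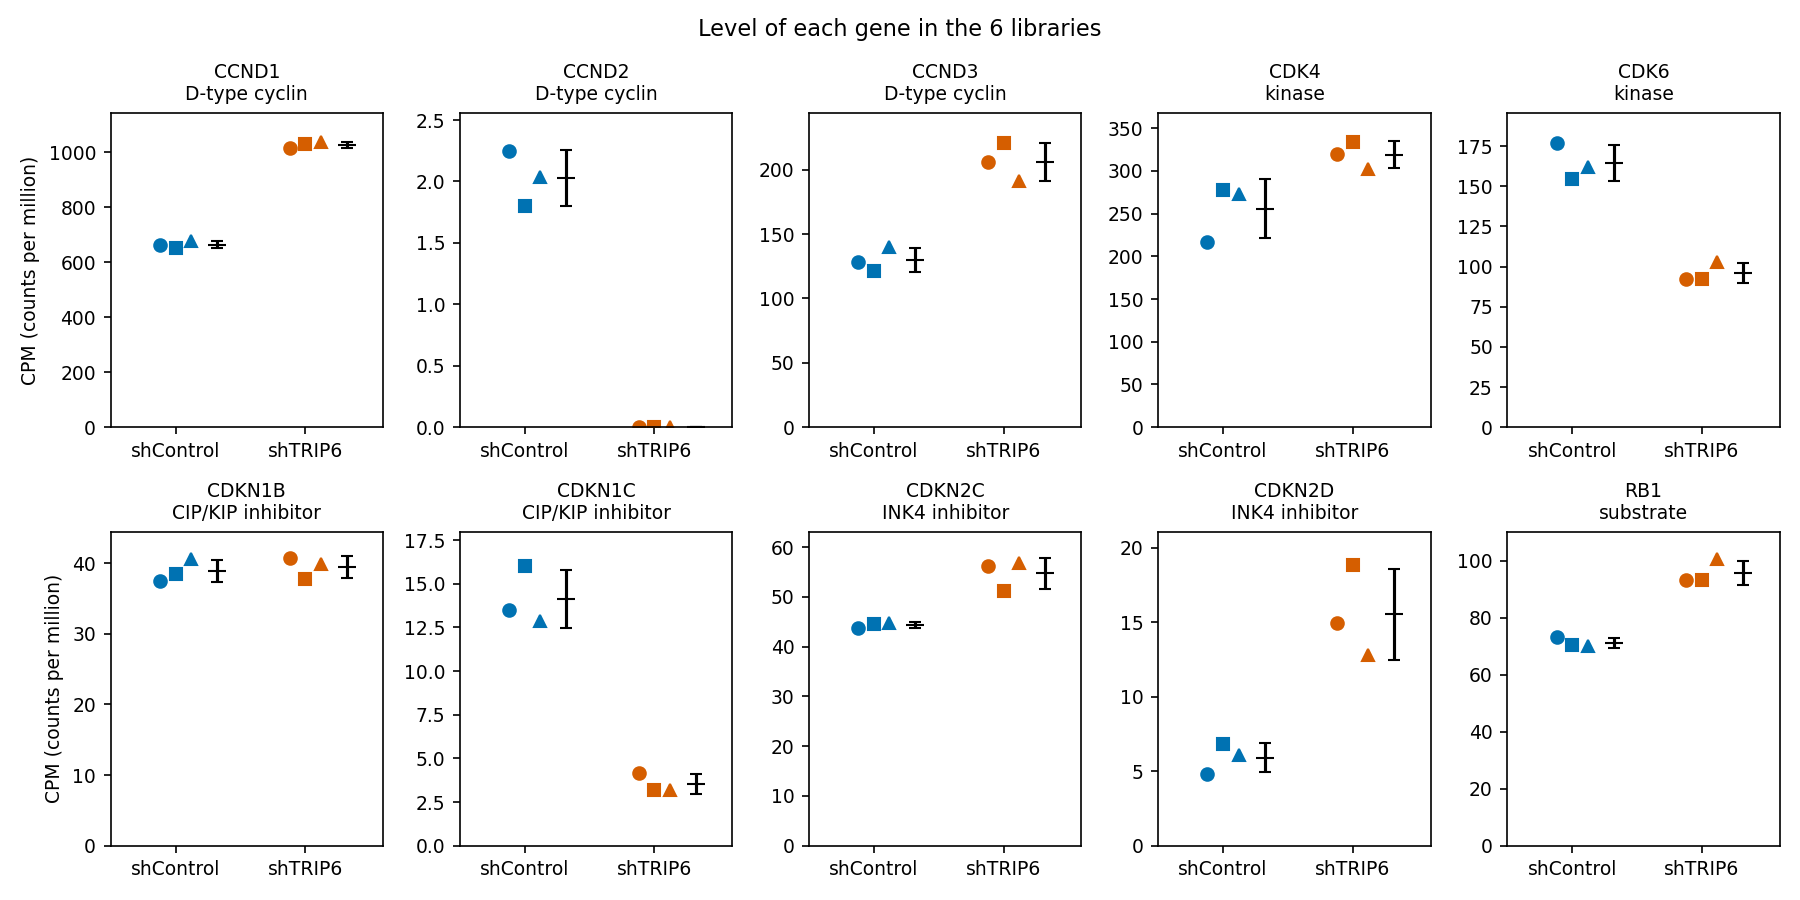
CPM of each of the 10 genes (vertical axes, each from 0) in the shControl libraries (blue) and the shTRIP6 libraries (orange), with replicates 1, 2 and 3 as circle, square and triangle. The black mark is the mean and its bar the SD of 3 libraries. The groups overlap for CDKN1B and for no other gene shown.

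Upstream sequence is shown for the inhibitor with the largest rise, CDKN2D, and for CDK6, the kinase that fell. Both stretches lie before the start site given by RefSeq (GRCh38.p14), run 5′ to 3′ on the minus strand and stop at the first base that GENCODE annotates as exon. CDKN2D is chr19:10569060-10569229 and CDK6 is chr7:92836595-92836823. Capitals mark the GC box GGGCGG or its complement CCGCCC, the core bound by SP1.
CDKN2D: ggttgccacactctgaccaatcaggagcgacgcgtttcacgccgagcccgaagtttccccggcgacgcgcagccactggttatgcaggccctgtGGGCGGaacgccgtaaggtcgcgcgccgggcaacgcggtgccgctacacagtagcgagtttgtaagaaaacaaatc
CDK6: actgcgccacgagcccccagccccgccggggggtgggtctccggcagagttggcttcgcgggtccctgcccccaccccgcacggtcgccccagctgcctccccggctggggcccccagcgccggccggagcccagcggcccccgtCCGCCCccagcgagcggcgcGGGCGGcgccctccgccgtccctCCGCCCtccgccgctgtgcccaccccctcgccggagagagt
The window of 250 bases, which can run into annotated exon and is then printed in part, before the start held the GC box at 2 places for CDKN2D and 3 for CDK6, so the box was present upstream of a gene that rose and of a gene that fell. RefSeq gives CDK6 another start, 2635 bases into the gene, whose window held 0 GC boxes. The window at the outer start is the one shown. RefSeq windows were matched for 7 of the 10 genes, 12 windows in all; CCND1, CCND2 and CDKN1C had none. Several windows belong to starts inside the gene, and the RB1 window ends 172724 bases past the first base of RB1, so the sequence before that first base was not searched. The GC box was found on either strand in 8 of the 12 windows, and in 42.6% of all 35116 windows of this length. The E2F words TTTGGCGC, TTTGCCGC, TTTCGCGC and TTTCCCGC were found in 0 of the 12, and in 2.79% of all windows. The TEAD word GGAATG was found in 3 of the 12, those of CCND3 and CDKN2C, and in 11.9% of all windows. The E-box CACGTG, which is its own complement, occurred in 3 of the 12, those of CDK4 and CDKN2C, and in 6.34% of all windows. The E2F words and the GC box can share letters on the complement strand. A match is a run of letters and not a shown binding site.

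Cyclin D1 and cyclin D3 mRNA rose together, and cyclin D2 mRNA went from low to no count. CCND1, the D-type cyclin most often amplified in carcinomas (chromosome 11 from 69641087 to 69654474, GRCh38), stood at 1014, 1030.3 and 1037 CPM in the shTRIP6 libraries and at 661, 653 and 677.5 CPM in the controls. The lowest shTRIP6 library lay far above the highest shControl library, and the spread within each group was small. The rise was 1.55-fold (log2 fold change 0.63 ± 0.04, adjusted p = 5.64e-11). CCND3, the family member prominent in lymphocytes and muscle (chromosome 6 from 41934933 to 42050357), stood at 206, 221 and 191 CPM in shTRIP6 and at 129, 121 and 139.95 CPM in shControl. Its groups were also separate, with wider spread than for CCND1. The rise was 1.59-fold (log2 fold change 0.67 ± 0.06, adjusted p = 1.76e-08).

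CCND2 (chromosome 12 from 4273772 to 4305350), a D-type cyclin of gonads, brain and lymphocytes, had 0 counts in all 3 shTRIP6 libraries and 67, 56 and 63 counts in shControl. In shControl this was 2.25, 1.80 and 2.04 CPM, low next to the other cyclins. With a floor of 3 counts over the 3 shTRIP6 libraries, 0.0317 CPM, CCND2 was at least 64.0-fold lower in shTRIP6. Its p-value is not given, since it passed the count filter through shControl. DCN and PECAM1, markers of fibroblasts and endothelium, showed the same pattern of 0 counts in shTRIP6 and low counts in shControl, and their part in the CCND2 result was not tested. The antisense gene CCND2-AS1, which shares 126 exon bases with CCND2, had 2 counts in each shControl library and 0 in shTRIP6. Of 10 genes near CCND2 on chromosome 12, 6 could be tested, of which 4 were higher and 0 lower, with a median log2 fold change of 0.38. The shares over all tested genes were 29.0% higher and 31.2% lower. CRACR2A, a calcium sensor, rose from 11.3 to 18.0 CPM (log2 fold change 0.68) and PARP11, a mono-ADP-ribosyltransferase, from 3.36 to 5.28 CPM (0.65). None of the 6 tested neighbours was called lower, while CCND2-AS1, also among the 10, had too few counts to be tested. FGF23, FGF6 and PRMT8 were at 0 in all 6 libraries.

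Levels of different genes are set beside each other per kilobase of exon, using the union of all GENCODE 29 exons of a gene. The sources used here do not name the annotation that was counted. On that scale the summed D-type cyclins were 245.5, 251.4 and 247.7 CPM per kilobase in shTRIP6 and 159, 156 and 164.7 in shControl. The sum was 1.55 times higher in shTRIP6, and the make-up of the sum stayed close to that in shControl. CCND1 made up 85.7% ± 0.92 (SD, n = 3) of the sum in shTRIP6 and 85.9% ± 0.65 in shControl, and CCND3 14.3% ± 0.92 and 14.0% ± 0.65. CCND2 was 0.177% ± 0.0187 of the sum in shControl, so its loss took little from the total. The ratio of CCND1 to CCND3 per kilobase ranged from 5.602 to 6.51 in shTRIP6 and from 5.82 to 6.48 in shControl, and the groups overlapped. These shares and ratios depend on the length used. The exon union and longest transcript have 5802 and 2394 bases for CCND3, and 4830 and 4307 for CCND1. With the longest transcript CCND3 would take a larger share and the ratio would be lower in both groups. The cyclin sum was then 1.56 times higher in shTRIP6.

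The kinases CDK4 and CDK6 moved in opposite directions. CDK4 (chromosome 12 from 57747727 to 57756013), the kinase subunit found in most cycling cells, stood at 320.3, 334 and 302 CPM in shTRIP6 and at 216, 278 and 273 CPM in shControl. The groups were separate, and shControl replicate 1 lay well below the other controls. The rise was 1.25-fold (log2 fold change 0.32 ± 0.07, adjusted p = 0.000728). Without that library the log2 fold change was 0.21 (adjusted p = 4.07e-05) and the call held. CDK4 shares 1369 of its 3168 exon bases with TSPAN31 on the other strand. The sources used here do not say whether counting used strand. Reads from the shared bases could thus have gone to either gene or been left uncounted. TSPAN31 was at 6.97% of the CPM of CDK4 in shTRIP6 and 7.36% in shControl, and also rose (log2 fold change 0.24, adjusted p = 0.0274).

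CDK6 (chromosome 7 from 92604921 to 92836594), the close relative of CDK4 that is prominent in blood cell lineages, stood at 92.3, 92.2 and 103 CPM in shTRIP6 and at 177, 154.6 and 162 CPM in shControl. All 3 shTRIP6 libraries were clearly below all 3 controls. CDK6 fell by 0.78 ± 0.06 on the log2 scale, to 58.2% of the control mean (adjusted p = 1.69e-09). Per kilobase, CDK4 exceeded CDK6 by 13.4, 14.0 and 11.4 times in shTRIP6 and by 4.73, 6.96 and 6.50 times in shControl. The share of CDK6 in the summed kinase level went from 14.4% ± 2.62 (SD, n = 3) in shControl to 7.23% ± 0.762 in shTRIP6. The summed level of both kinases was 108 ± 4.53 against 94.1 ± 9.93 CPM per kilobase. The groups did not overlap, but lay close, at 103.8 in shTRIP6 replicate 3 and 100.4 in shControl replicate 2. In CPM without length the sums overlapped, at 405 to 426 in shTRIP6 and 393 to 435 in shControl. The exon union and longest transcript have 3168 and 2076 bases for CDK4, and 12260 and 11612 for CDK6. With the longest transcript the ratio of CDK4 to CDK6 would be higher in both groups.

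**Figure D2:**
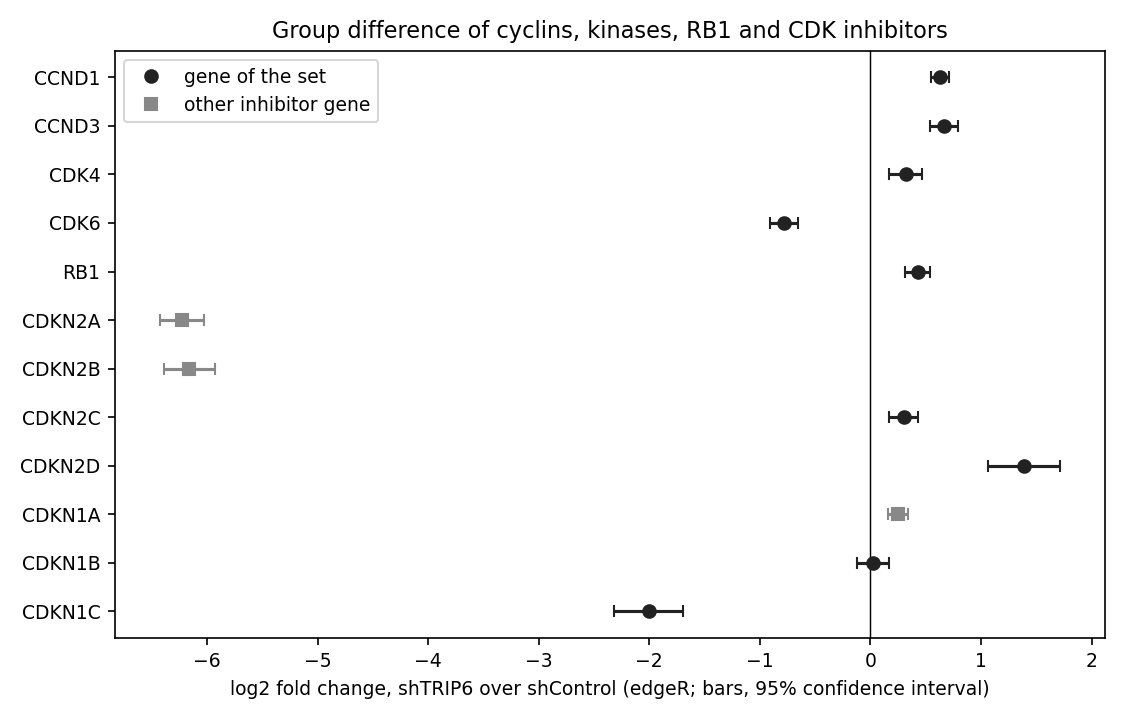
Log2 fold change of shTRIP6 over shControl (horizontal axis) with its 95% confidence interval from edgeR for 9 of the 10 genes (circles) and for the inhibitor genes CDKN2A, CDKN2B and CDKN1A (grey squares). CCND2 is left out because it had no count in shTRIP6. CDKN2A and CDKN2B lie near -6.2, CDKN1C at -2.01 and CDKN2D at 1.39.

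The question put to the inhibitors was whether the rest of them differ where those of chromosome 9 are nearly absent. CDKN2A, which encodes p16 and, from another reading frame, ARF, averaged 2.13 ± 0.378 CPM with the TRIP6 hairpin and 159.97 ± 8.88 CPM with the scrambled one (SD, n = 3). CDKN2B, which encodes p15, stood at 2.21 ± 0.678 against 159 ± 6.35 CPM. These were 1.33% and 1.39% of the control means. The remaining INK4 genes both rose, CDKN1C fell, and for CDKN1B no change was detected.

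CDKN2D (chromosome 19 from 10566462 to 10569059) encodes the INK4 inhibitor p19. It stood at 14.9, 18.8 and 12.8 CPM in shTRIP6 and at 4.84, 6.80 and 6.11 CPM in shControl. Every shTRIP6 library was above every control, with a wide spread inside each group. The rise was 2.62-fold (95% confidence interval 2.10 to 3.28, log2 fold change 1.39 ± 0.15, adjusted p = 2.98e-07), the largest rise among the 10 genes. It rested on 399 to 589 counts a library in shTRIP6 and 144 to 212 in shControl. CDKN2C (chromosome 1 from 50960745 to 50974633) encodes p18, the INK4 inhibitor linked to differentiation in muscle and plasma cells. It stood at 56.1, 51.2 and 56.8 CPM in shTRIP6 and at 43.7, 44.6 and 44.8 CPM in shControl. The groups were separate, and the rise was smaller, 1.23-fold (95% confidence interval 1.12 to 1.35, log2 fold change 0.30 ± 0.06, adjusted p = 0.000442).

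Per kilobase, CDKN2D stood at 0.587, 0.812 and 0.499 of CDKN2C in shTRIP6 and at 0.244, 0.337 and 0.301 in shControl, with no overlap. Together they came to 26.8 ± 1.16 CPM per kilobase in shTRIP6 and 17.3 ± 0.820 in shControl (SD, n = 3), a difference of 9.503. CDKN2A and CDKN2B together came to 1.04 ± 0.0886 and 76.1 ± 0.588, a fall of 75.0. The gain of CDKN2C and CDKN2D on this scale was thus far smaller than the level missing from chromosome 9. All 4 INK4 genes summed to 27.9, 29.04 and 26.6 CPM per kilobase in shTRIP6 and to 91.8, 94.4 and 94.0 in shControl. CDKN2C and CDKN2D made up 59.3% and 36.9% of that sum in shTRIP6, and 14.3% and 4.21% in shControl. The length given to CDKN2A matters here, since its longest annotated transcript has 1283 bases and the union of its exons 4329. With the longest transcript of each gene the log2 ratio of the INK4 sum was -2.53 in place of -1.75.

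CDKN1C (chromosome 11 from 2883213 to 2885773) encodes p57, a CIP/KIP inhibitor expressed from the maternal copy of an imprinted domain. It stood at 4.17, 3.20 and 3.18 CPM in shTRIP6 and at 13.5, 16.0 and 12.9 CPM in shControl. The highest shTRIP6 library was under the lowest control by a wide margin. CDKN1C fell by 2.01 ± 0.15 on the log2 scale, to 24.9% of the control mean (adjusted p = 1.26e-09), on 99 to 133 counts a library in shTRIP6 and 399 to 499 in shControl. Of 10 genes near it, 9 could be tested, of which 5 were higher and 2 lower, with a median log2 fold change of 0.24. Over all tested genes 29.0% were called higher and 31.2% lower, so calls among neighbours are common. KCNQ1OT1, the long noncoding RNA of the paternal copy that silences genes of the domain in cis, rose from 16.1 to 21.9 CPM (log2 fold change 0.44, adjusted p = 0.00046). Its part in the fall of CDKN1C was not tested. PHLDA2, a growth-restraining gene near CDKN1C, fell from 76.1 to 56.5 CPM (log2 fold change -0.43). NAP1L4, a histone chaperone, fell from 178.5 to 157.5 CPM (-0.18). TSSC4 and SLC22A18, also near CDKN1C, went the other way and rose by 0.71 and 0.65 on the log2 scale. No tested neighbour fell as far as CDKN1C.

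CDKN1B (chromosome 12 from 12715058 to 12722371) encodes p27, the CIP/KIP inhibitor that holds back CDK2 in resting cells. It stood at 40.8, 37.8 and 39.95 CPM in shTRIP6 and at 37.6, 38.5 and 40.6 CPM in shControl. The groups overlapped throughout. The log2 fold change was 0.02 ± 0.07 (adjusted p = 0.789), and the 95% confidence interval of the fold, 0.92 to 1.12, lies below the smallest rise among the other genes of the set, 1.23-fold for CDKN2C. CDKN1A, the p53-induced p21 gene, stood at 363 ± 7.30 against 305.3 ± 13.1 CPM and rose by 0.25 on the log2 scale (adjusted p = 8.68e-05).

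Within the CIP/KIP family CDKN1A dominated per kilobase, at 88.5% ± 0.551 (SD, n = 3) of the summed level in shTRIP6 and 83.7% ± 0.378 in shControl. CDKN1B made up 10.4% and 11.6%, and CDKN1C 1.05% and 4.77%. The summed level was 136, 135.6 and 131.8 CPM per kilobase in shTRIP6 and 114, 121 and 123.5 in shControl, so the family total was higher in shTRIP6 despite the fall of CDKN1C. Without CDKN1A the order turned, at 15.47 ± 0.719 against 19.5 ± 0.676 CPM per kilobase.

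**Figure D3:**
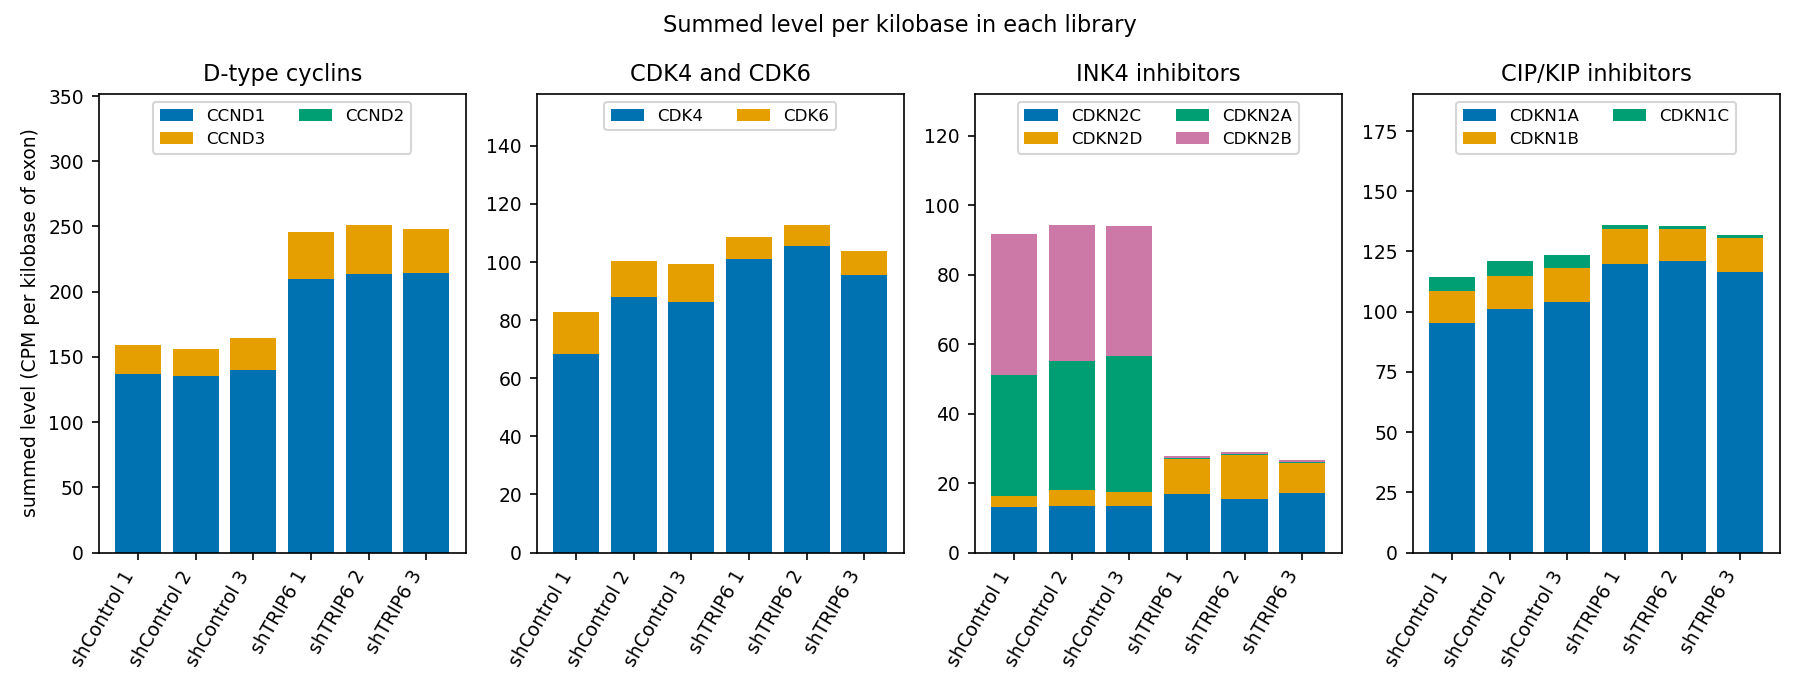
Summed level per kilobase of exon (vertical axes, CPM per kilobase, from 0) in each of the 6 libraries for the D-type cyclins, the kinases, the INK4 inhibitors and the CIP/KIP inhibitors, with each gene as a coloured segment. The INK4 bars drop from 91.8 to 94.4 in shControl to 26.6 to 29.04 in shTRIP6 while the cyclin bars rise from 156 to 164.7 to 245.5 to 251.4.

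RB1 (chromosome 13 from 48303726 to 48599436) encodes the substrate on which the pathway converges. It stood at 93.3, 93.4 and 100.6 CPM in shTRIP6 and at 73.2, 70.3 and 70.0 CPM in shControl. The groups were well separated, and RB1 rose 1.35-fold (log2 fold change 0.43 ± 0.05, adjusted p = 1.83e-06). Its relatives RBL1 and RBL2, which encode p107 and p130, did not pass the test, with log2 fold changes of 0.06 and -0.03.

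The order of the 10 genes by level per kilobase began alike in both groups, with CCND1 (213 CPM per kilobase in shTRIP6 and 137 in shControl), CDK4 (100.6 and 80.7) and CCND3 (35.5 and 22.4). In shControl CDKN1B (13.8), CDK6 (13.4) and CDKN2C (13.4) came next and overlapped their neighbours, followed by RB1 (11.03), CDKN1C (5.71), CDKN2D (3.94) and CCND2 (0.283). In shTRIP6 CDKN2C (16.5), RB1 (14.8) and CDKN1B (14.1) came next, each overlapping its neighbour, followed by CDKN2D (10.3), CDK6 (7.82), CDKN1C (1.42) and CCND2 (0). CDKN2D thus moved from below CDKN1C and CDK6 to above both. The places of CDKN1B, CDK6, CDKN2C and RB1 depend on the length used. RB1 has 6452 bases in the union of its exons and 4793 in its longest transcript. With the longest transcript of each gene, RB1 would stand above CDKN1B and CDK6 in shControl and above CDKN2C in shTRIP6.

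Other genes of the pathway were counted by lists. Beside each list stand the shares over all tested genes, 29.0% called higher and 31.2% called lower. Of the E-type and A-type cyclins with CDK2 and its activator, 3 of 5 tested rose and 1 fell, with a median log2 fold change of 0.33. CCNE2, the cyclin E2 gene, rose from 26.8 to 41.8 CPM (log2 fold change 0.64) and CDC25A, the phosphatase that activates CDK2, from 55.3 to 75.7 CPM (0.45). CCNA2, the S phase cyclin, had a log2 fold change of -0.13 (adjusted p = 0.0267), and its call was lost without any of the 3 shTRIP6 replicates in turn or shControl replicate 3, with log2 fold changes of -0.13, -0.13, -0.10 and -0.10. Of the pocket proteins, E2F factors and their DP partners, 4 of 12 rose and 1 fell, with a median of 0.02. E2F8, an atypical repressor E2F, rose from 15.0 to 31.0 CPM (log2 fold change 1.05 ± 0.08, adjusted p = 3.94e-09), while E2F7, its close relative, fell from 51.7 to 40.3 CPM (-0.36). TFDP1, the main DP partner, rose by 0.41.

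Of 18 E2F-responsive S phase genes, 10 rose and 1 fell, with a median of 0.20. The shares over all tested genes were 29.0% higher and 31.2% lower. RRM2, the small subunit of ribonucleotide reductase, rose from 533 to 872 CPM (log2 fold change 0.71) and MCM7, a subunit of the replicative helicase, from 345 to 492 CPM (0.51). ORC1 fell by 0.24, and its call was lost without shTRIP6 replicate 1 (log2 fold change -0.19, adjusted p = 0.0616). MYBL2 was counted with the MuvB subunits and not among the 18 genes above. In that list 0 of 6 rose and 2 fell, with a median of 0.01. MYBL2, the B-MYB transcription factor, was at 107, 105 and 105 CPM in shTRIP6 and 211, 209.9 and 220.3 CPM in the controls, a log2 fold change of -1.01 ± 0.05 (adjusted p = 8.63e-13). LIN54, the DNA-binding subunit of MuvB, had a log2 fold change of -0.25, and its call was lost without shTRIP6 replicate 1 or 2 or shControl replicate 1 (-0.22, -0.23 and -0.16).

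Of 7 genes of p27 turnover, 1 rose and 4 fell, with a median of -0.29. Among all tested genes 29.0% were called higher and 31.2% lower. SKP2, the F-box protein that marks p27 for destruction, fell from 82.6 to 61.1 CPM (log2 fold change -0.43) and UBAC1 by 0.34, while CKS1B, the cofactor of SKP2, rose by 0.17. Of 6 tested genes of D-type cyclin turnover, 3 rose and 3 fell, with a median of -0.02. GSK3B, a kinase that marks cyclin D1 for export and degradation, fell from 149 to 94.0 CPM (-0.66) and AMBRA1, the ubiquitin ligase adaptor for D-type cyclins, by 0.26, while FBXO4 and CUL4A rose by 0.44 and 0.17. Of the 3 subunits of the CDK-activating kinase, the cyclin H gene CCNH rose by 0.26 and CDK7 and MNAT1 did not pass. Of the 3 chaperone genes for CDK4, HSP90AB1 rose by 0.31, HSP90AA1 fell by 0.37 and CDC37 did not pass.

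**Figure D4:**
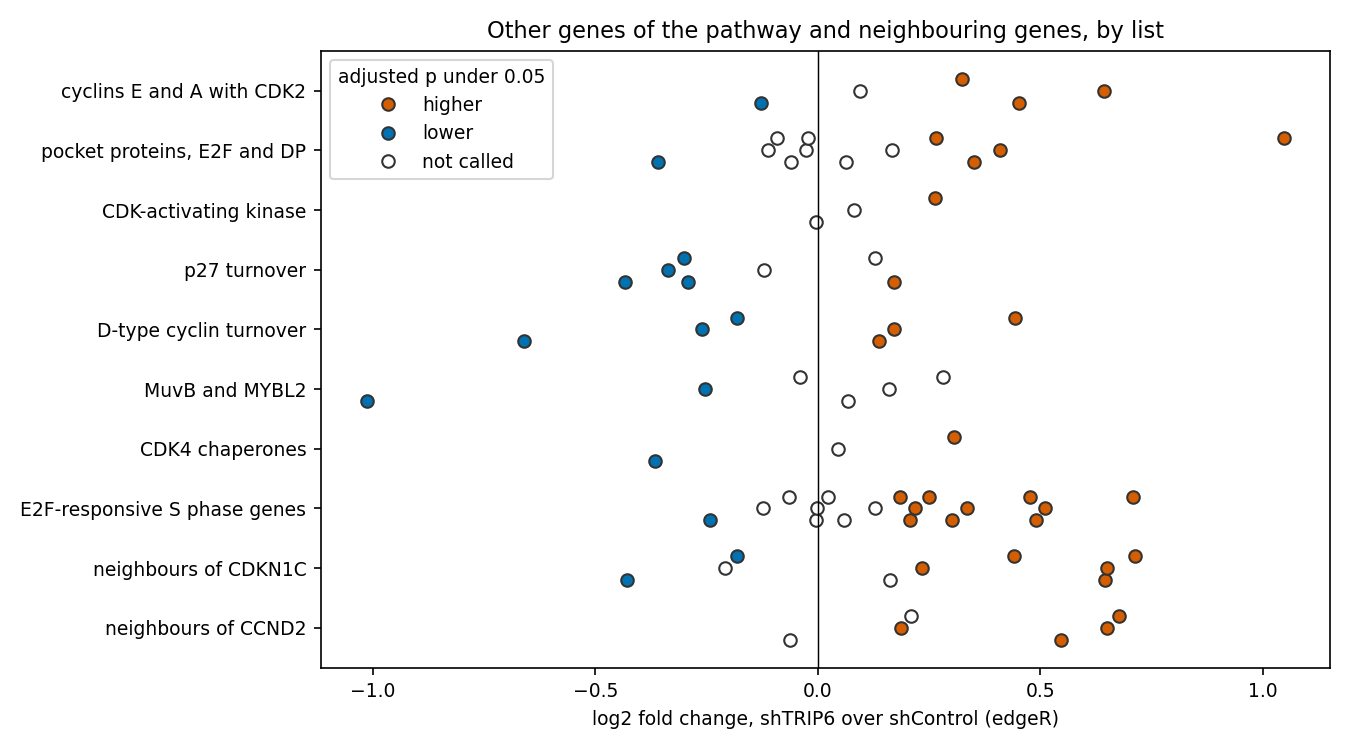
Log2 fold change of shTRIP6 over shControl (horizontal axis) for each tested gene of 10 lists, as filled points where the adjusted p is under 0.05 (orange higher, blue lower) and open points otherwise. Points are offset vertically for legibility. E2F8 lies farthest right at 1.05 and MYBL2 farthest left at -1.01.

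CDKN2D had the largest fold among the genes of the set with a mean of 10 CPM or more. Among 10213 other genes at that level, PIDD1, TUBB3 and ADCK2 had the pattern most like it over the 6 libraries, with root mean square distances of centred log2(CPM + 1) of 0.13, 0.13 and 0.14. Their log2 fold changes were 1.44, 1.30 and 1.22.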

How the data were processed

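The authors deposited raw counts of reads for each gene symbol in 6 libraries. TopHat2, edgeR, limma and the build hg38 are named in the submitters' processing notes without role or version; the sources used here name no counting tool, annotation or strand setting. Groups and replicate numbers came from the labels. Both groups were fitted in edgeR 4.0.16 under R 4.3.3, with TMM scaling, the filterByExpr count filter and a quasi-likelihood test of group, and p-values were adjusted by Benjamini-Hochberg over 15473 genes. A single count was worth 0.0312 to 0.0338 CPM. Floors of 3 counts cover counting error only, because reads were not tagged by molecule. SE is the log2 fold change divided by the square root of F.

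Members, lists and the rule for named genes were chosen with earlier results of these data known. The rule took the 10 genes, TRIP6, CDKN2A, CDKN2B, CDKN1A, and up to 2 rises and 2 falls of each list among called genes at a mean of 1 CPM or more. Other genes were named after their values were seen. CD68, named by this rule, rose by 0.20 on the log2 scale and lost its call without shControl replicate 2, at 0.12. Lengths, positions and exon overlaps came from GENCODE 29 (GRCh38). Upstream windows came from RefSeq (GRCh38.p14).

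Replicates differed by more than sampling noise: chi-square over degrees of freedom was 3.06 to 12.2 within groups and 126 to 143 between them. The fit was tested on simulated counts of 15317 genes, in which far fewer genes were changed than were called in the data. It recovered 42.9% of 1.2-fold, 76% of 1.5-fold, 93.8% of 2-fold and 100% of 4-fold changes, with 13 false calls. Small folds were thus often missed there. The alternatives were RLE, upper-quartile or no scaling, no filter, a stricter filter (1 CPM in 3 libraries), limma-voom (limma 3.58.1), DESeq2 1.42.0, a block for replicate number, each library left out in turn, and the longest transcript as length. For genes outside the set these were chosen after seeing the data.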

Additional observations from a re-analysis of the deposited data

How the results depend on the processing

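All 9 called genes of the set kept their direction and their call in all 14 alternatives, and every alternative called 6 of the 10 higher and 3 lower. CCND2, with no count in shTRIP6, could take no other direction, so its kept call is no sign of stability. The 6 higher and 2 lower genes other than CCND2 kept theirs. Genes called over the whole table ranged from 4018 to 5073 higher and from 4368 to 5049 lower. The widest range of a called gene on the log2 scale was that of CCND2, -9.06 to -7.00, a fitted value that depends on the prior count. CDKN2D ranged from 1.23 to 1.52, CDKN1C from -2.14 to -1.91, CDK6 from -0.82 to -0.73 and CDK4 from 0.21 to 0.38. CDKN1B, which was not called, changed sign without shControl replicate 1 (log2 fold change -0.0013, while leaving out each library in turn gave -0.0013 to 0.0594 and all alternatives -0.0013 to 0.0708), and the adjusted p stayed between 0.382 and 0.989. The summed INK4 level moved from a log2 ratio of -1.75 to -2.53 with the longest transcript as length, through the length of CDKN2A. Of 36 other named genes, 494 of 504 values kept the call and 10 lost it, for CCNA2, LIN54, ORC1 and CD68. CCNA2 also lost it with upper-quartile scaling (-0.08). With the replicate number as a block, 4377 genes were called higher and 4702 lower and no call in the set changed. Same-numbered libraries did not deviate together (r of -0.00223, 0.0100 and -0.0695 over genes), so the numbers were not taken to pair the samples. Depth limits CCND2 and CDKN1C most, with at most 67 and 499 counts a library.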
